A study of Mus musculus with 20 samples.

Results

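The Dlk1-Dio3 imprinted cluster was followed through 6 genes of mouse chromosome 12, Dlk1, Meg3, Rtl1, Rian, Mirg and Dio3, chosen by matching those symbols in the deposited count tables. All 6 were found among 23361 entries, and all 6 passed the filter on low counts in each fit. The 20 libraries of stranded mRNA sequencing came from mouse embryonic stem cells on their way to epiblast stem cells, a primed state of pluripotency. The 5 stages were day 0 in the inhibitor medium 2i, used for naive cells, and day 4, day 10, days 19 to 23 and days 27 to 30 in N2B27 medium with activin A and Fgf2 on fibronectin. PGK cells, which are female, and E14 cells, which are male, were each sampled at every stage in 2 differentiation experiments, diff2 and diff3, which made 10 groups of 2 libraries. No gene deletion or transgene is given in the labels. With 1 line of each sex, an effect of sex cannot be told apart from one of the line, and the parental origin of a transcript was not measured.

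The cluster is a region where each parental chromosome expresses its own genes. In the mouse, the noncoding RNAs Meg3, Rian and Mirg are transcribed from the maternal chromosome, in one direction and at short distances from each other, and host small nucleolar RNAs and microRNAs. The protein genes Dlk1, Rtl1 and Dio3 are expressed mainly from the paternal chromosome, and a methylated element between Dlk1 and Meg3, the IG-DMR, keeps the chromosomes apart. Loss of Meg3 expression is a known fault of some mouse pluripotent stem cell lines.

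On GRCm38, in the GENCODE M21 annotation, Dlk1 lies at chromosome 12, 109452823 to 109463336. Meg3 follows at 109541001 to 109571726, Rtl1 on the opposite strand at 109589193 to 109600330, Rian at 109603940 to 109661716, Mirg at 109729764 to 109749460 and Dio3 at 110279068 to 110281097. RefSeq draws Rtl1 longer, from 109564900 to 109604418, where it overlaps Meg3 by 6830 bases and Rian by 474 bases on the other strand. The libraries are labelled as stranded, but whether counting used the strand is not given in the sources used here. Reads of Rtl1 and of the transcripts opposite to it can therefore not be told apart with certainty.

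The starts of the 3 noncoding genes and of Dio3 are shown because the results turn on these genes: the noncoding RNAs rose at day 4 in PGK, and Dio3 fell by days 27 to 30 in PGK. Each sequence is the 300 bases around the RefSeq start on GRCm38.p6, plus strand, from 250 bases before it to 50 after. Capitals mark matches to the motifs searched on both strands: TGACGTCA, the cyclic AMP response element; TGCCGC, the hexamer bound by ZFP57; GGGCGG, the GC box; TATAAA, the TATA box; and TGACG, which lies inside the first of these.
Meg3, chr12:109540746-109541045: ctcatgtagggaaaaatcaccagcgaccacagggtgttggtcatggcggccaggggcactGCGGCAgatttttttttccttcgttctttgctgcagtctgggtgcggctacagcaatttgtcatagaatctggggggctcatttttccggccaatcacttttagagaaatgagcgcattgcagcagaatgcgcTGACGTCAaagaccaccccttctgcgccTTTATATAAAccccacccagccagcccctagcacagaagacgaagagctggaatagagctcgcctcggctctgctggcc
Rian, chr12:109603695-109603994: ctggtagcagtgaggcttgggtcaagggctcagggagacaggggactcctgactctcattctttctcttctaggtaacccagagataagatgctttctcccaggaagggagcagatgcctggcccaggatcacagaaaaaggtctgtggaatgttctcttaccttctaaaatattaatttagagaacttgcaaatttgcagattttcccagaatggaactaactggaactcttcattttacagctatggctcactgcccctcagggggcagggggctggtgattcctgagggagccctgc
Mirg, chr12:109734731-109735030: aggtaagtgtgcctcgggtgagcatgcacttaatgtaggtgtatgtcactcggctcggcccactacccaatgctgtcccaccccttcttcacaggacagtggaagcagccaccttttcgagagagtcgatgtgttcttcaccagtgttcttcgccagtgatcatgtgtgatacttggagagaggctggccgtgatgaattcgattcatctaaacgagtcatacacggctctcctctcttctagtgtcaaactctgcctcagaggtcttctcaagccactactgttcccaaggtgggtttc
Dio3, chr12:110278980-110279279: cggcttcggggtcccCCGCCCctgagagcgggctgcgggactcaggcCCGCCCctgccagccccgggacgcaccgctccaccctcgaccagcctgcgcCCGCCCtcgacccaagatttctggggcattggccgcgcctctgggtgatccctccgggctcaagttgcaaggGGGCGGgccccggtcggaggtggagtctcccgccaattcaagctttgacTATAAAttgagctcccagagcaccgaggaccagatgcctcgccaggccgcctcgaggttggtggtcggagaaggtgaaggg

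The Meg3 window held the full TGACGTCA, which starts 57 bases upstream and occurs in 1.79% of 32851 windows of this length. It also held the reverse complement of TGCCGC, 190 bases upstream (11.61% of windows), and TATAAA on both strands, 29 and 25 bases upstream (13.62% of windows). The Dio3 window held 4 GC boxes, between 235 and 80 bases upstream (35.66% of windows), and TATAAA 31 bases upstream. Each share is that of windows with any match to the motif, on either strand. None of the motifs searched was in the windows of Rian and Mirg. Rian had 0 CG dinucleotides, against 13 in Meg3, 10 in Mirg, 25 in Dio3 and a median of 7 over all windows. The 2 annotations place the starts of Mirg and of Dio3 apart, so their windows are those of RefSeq. Dio3 starts at 110279230 in RefSeq and at 110279068 in GENCODE. Its TATAAA and the GC boxes 152 and 80 bases upstream therefore lie downstream of the GENCODE start. For Meg3 the source held 2 windows, and the first of them is shown.

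The cluster is also a microRNA locus, and RefSeq places 58 hairpins between Dlk1 and Dio3, nearly all on the strand of Meg3. Here 6 mature microRNAs, in order along the chromosome, are printed as examples of what the hosts and the gap between Rian and Mirg carry, with the seed in capitals; none is shown from the gaps between Meg3 and Rtl1 and between Mirg and Dio3.
miR-770-3p, in Meg3: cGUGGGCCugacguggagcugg
miR-127-3p, opposite Rtl1: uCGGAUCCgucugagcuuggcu
miR-136-5p, opposite Rtl1: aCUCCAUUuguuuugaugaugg
miR-370-3p, in Rian: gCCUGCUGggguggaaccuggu
miR-379-5p, between Rian and Mirg: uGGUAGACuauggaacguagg
miR-410-3p, in Mirg: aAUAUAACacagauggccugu

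The 6 seeds differ from each other. The count tables list 54 of the 58 hairpins under their RefSeq symbol, and only 2 of them had any count, with 3 counts over all 20 libraries. They also hold entries named Mir299 and Mir496, where RefSeq has Mir299a and Mir496a, and these were not matched or summed here. The libraries thus measured the host transcripts and not the microRNAs.

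Depth ranged from 2020254 to 26936415 counts per library. The E14 diff3 libraries at day 0 (3376500 counts) and day 4 (2020254 counts) were shallow, so that the floor of 3 counts there equals 0.888 and 1.48 CPM (counts relative to the total of the library, the unit of all levels given here), against 0.111 to 0.253 CPM in the other libraries. The 8 marker genes of naive cells summed to at most 212 CPM from day 4 on, against 3270 to 5280 CPM at day 0. Those of primed cells summed to between 1680 and 3640 CPM from day 4 on, against 87.6 to 149 CPM at day 0. In bulk samples, fewer cells of a type and less RNA per cell cannot be told apart. The 2 libraries of a group come from separate experiments, and every mean ± SD has n = 2. Where groups are said to overlap or not, the share of all genes without overlap was not counted. Such statements are descriptions and lend no support to a change that missed the test.

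**Figure D1:**
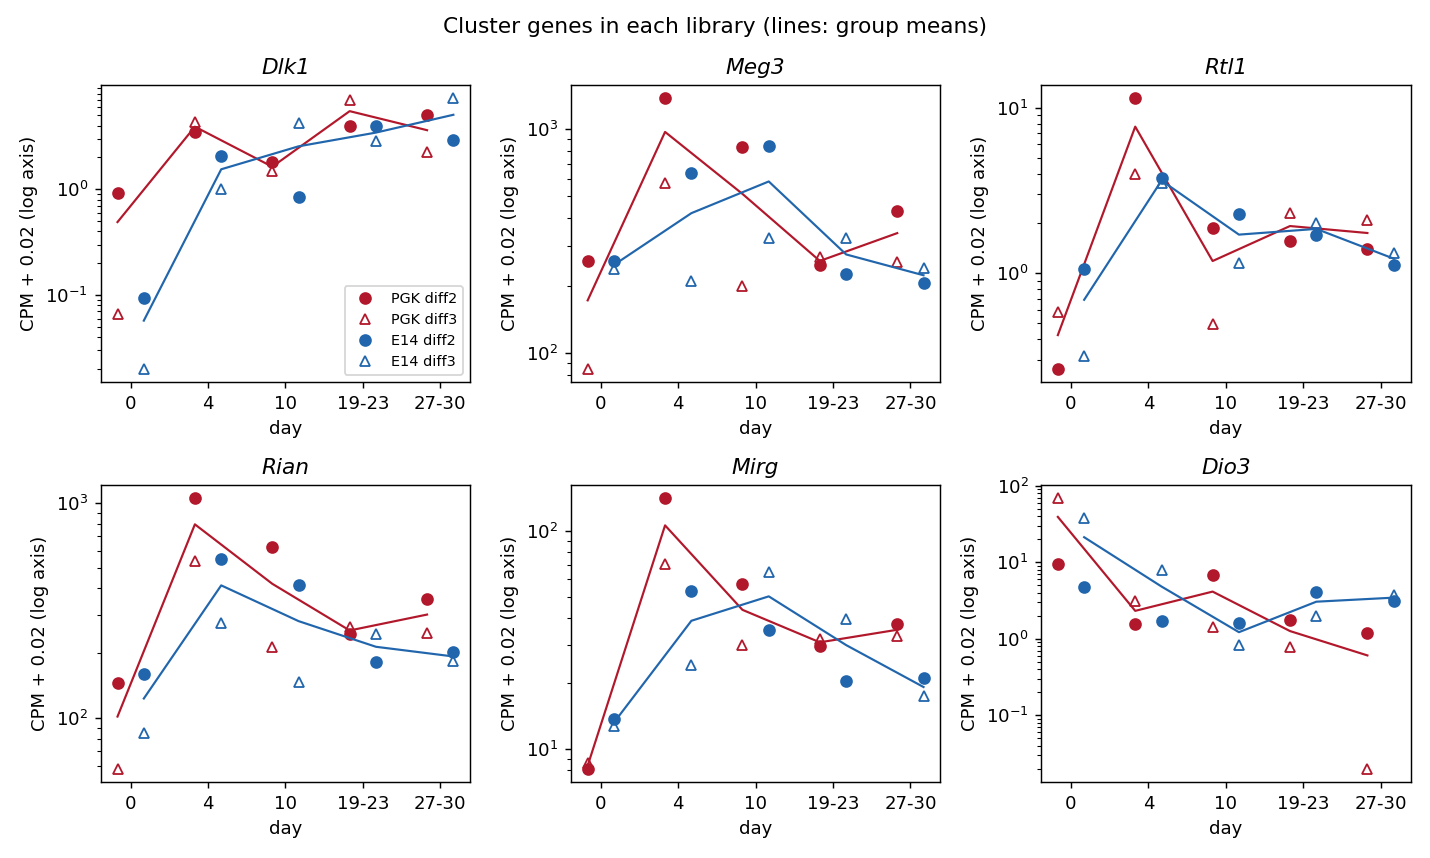
Levels of the 6 cluster genes in each library, in CPM plus 0.02 on a log axis, by day, with PGK in red left of E14 in blue, filled circles for diff2, open triangles for diff3 and lines through the group means. Meg3, Rian, Mirg and Rtl1 were highest at day 4 in PGK, and Dio3 was highest at day 0 in both lines.

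The first question was what the cluster did in PGK in the 4 days after 2i was withdrawn. All 3 noncoding RNAs and Rtl1 rose, by 2.43 to 4.13 on the log2 scale, while Dlk1 and Dio3 did not pass the test. Within an experiment the day 4 and day 0 libraries carry the library code in their titles alike, both in diff2 and neither in diff3. The 4 calls of 6, all higher, stand against 2260 of 15284 genes called in this comparison (14.8%) and 8.35% called as higher, with a threshold of 0.05 on the Benjamini-Hochberg adjusted p of edgeR's quasi-likelihood test. The median log2 fold change was 2.98 over the 6 genes and −0.01 over all genes tested.

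Mirg, the noncoding host of the largest group of these microRNAs within a gene, measured 141 CPM at day 4 in diff2 and 70.8 CPM at day 4 in diff3, against 8.12 and 8.65 CPM at day 0. The day 0 libraries were close to each other and the day 4 libraries far above them (log2 fold change 3.59, SE 0.41, adjusted p = 0.000384 by edgeR). Rian, host of the small nucleolar RNAs of the C/D box type, measured 1050 and 538 CPM at day 4, against 145 and 58.2 CPM at day 0. In both experiments the level at day 4 was several times that at day 0 (log2 fold change 2.90, SE 0.56, adjusted p = 0.0069 by edgeR). Meg3, a long noncoding RNA, measured 1369 and 572 CPM at day 4, against 259 and 85.0 CPM at day 0. Both day 4 libraries lay above both day 0 libraries, with a wide gap between experiments (log2 fold change 2.43, SE 0.70, adjusted p = 0.0417 by edgeR).

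Rtl1, a protein gene derived from a retrotransposon and needed in the placenta, measured 11.4 and 3.97 CPM at day 4, against 0.244 and 0.561 CPM at day 0. The day 0 values rest on 3 and 12 counts, and the groups did not overlap (log2 fold change 4.13, SE 1.06, adjusted p = 0.0264 by edgeR). Dlk1, a membrane protein related to Notch ligands, measured 3.44 and 4.34 CPM at day 4, against 0.893 and 0.0468 CPM at day 0, the last being a single count. The test was missed, with a log2 fold change of 3.05 (SE 1.13, adjusted p = 0.1 by edgeR). Dio3, the deiodinase that inactivates thyroid hormone, measured 1.54 and 3.06 CPM at day 4, against 9.58 and 69.0 CPM at day 0. The groups did not overlap, but the day 0 libraries differed widely between experiments and the test was not passed (log2 fold change −4.14, SE 1.39, adjusted p = 0.0741 by edgeR).

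The call of Mirg held in all 11 alternative analyses, and that of Rian in 10, being lost without the low-count filter (adjusted p = 0.0657 by edgeR). Meg3 lost its call without any one of the 4 libraries concerned (adjusted p 0.0555 to 0.229) and without the filter, and Rtl1 lost it without either day 0 library or without the diff2 day 4 library (adjusted p 0.059 to 0.165). Dlk1 gained a call with DESeq2 (adjusted p = 0.0169), with limma on the deposited log2 values (adjusted p = 0.0348) and without the diff2 day 0 library, where its edgeR log2 fold change was 6.15 (adjusted p = 0.0179). Dio3 was called lower with limma alone (−2.51, adjusted p = 0.0271).

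In E14, day 4 against day 0, 0 of the 6 genes passed, where edgeR called 1386 of 14501 genes (9.56%). At an unadjusted p under 0.05, 3593 genes passed, among them Rian, Mirg and Dlk1, while DESeq2 called 3 members (Rian, Mirg and Dlk1) and limma 1 (Rian). The median log2 fold change was 1.67 over the 6 genes, against 0.15 over all genes tested. Rian measured 549 CPM (diff2) and 278 CPM (diff3) at day 4, against 161 and 85.6 CPM at day 0. The groups did not overlap, and the adjusted p lay near the threshold (log2 fold change 1.76, SE 0.53, adjusted p = 0.0631 by edgeR). With the experiment as a replicate block Rian passed (adjusted p = 0.0335 by edgeR), as it did in 6 more of the 12 alternatives. These include the fit without the diff2 day 0 library, which leaves the shallow library alone at day 0.

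Mirg measured 53.2 and 24.3 CPM in E14 at day 4, against 13.7 and 12.7 CPM at day 0 (log2 fold change 1.58, SE 0.59, adjusted p = 0.126 by edgeR). It missed the test, but passed with DESeq2 (adjusted p = 0.036) and in the joint edgeR fit of both lines (adjusted p = 0.0385). Meg3 measured 633 and 209 CPM at day 4, against 259 and 236 CPM at day 0, so its groups overlapped. Its log2 fold change of 0.80 (SE 0.53, adjusted p = 0.381 by edgeR) turned to −0.22 without the diff2 day 4 library, which leaves the shallow one alone. Rtl1 measured 3.76 and 3.46 CPM at day 4, against 1.04 and 0.296 CPM at day 0, the last being 1 count (log2 fold change 2.30, SE 1.09, adjusted p = 0.222 by edgeR). Dio3 measured 1.69 and 7.92 CPM at day 4, against 4.70 and 37.9 CPM at day 0, with overlap between the groups but a lower level at day 4 within each experiment. Of the 12 alternatives 1 called it, that without the diff2 day 0 library (log2 fold change −3.03). That setting leaves the shallow library alone at day 0. Its median log2 fold change over all genes was 0.76, against 0.15 in the main fit.

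Dlk1 had 1 count over both E14 libraries of day 0. At day 4 it had 30 counts, a ratio of 32.3 relative to library totals (95% exact interval 5.37 to 1317, counting error only). The libraries held 2.06 and 0.990 CPM at day 4, against 0.0746 and 0 CPM at day 0, and the shallow day 4 library added only 2 counts (adjusted p = 0.101 by edgeR).

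**Figure D2:**
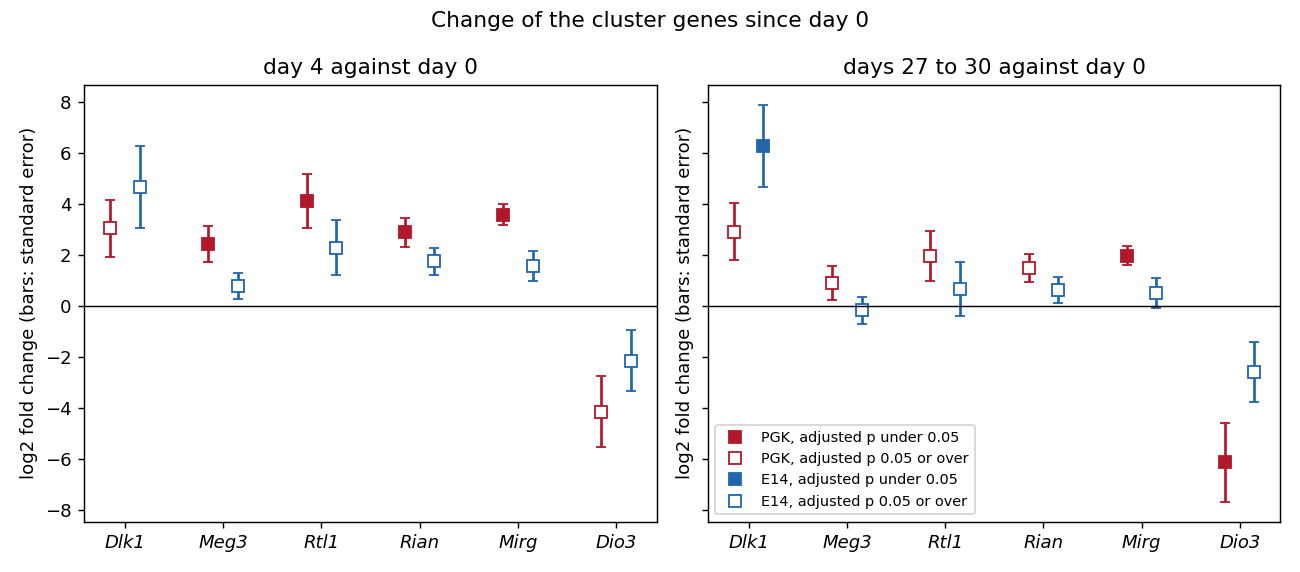
Fitted log2 fold changes of the 6 genes with standard errors, PGK in red left of E14 in blue, for day 4 against day 0 and for days 27 to 30 against day 0. Filled squares have an adjusted p under 0.05: Meg3, Rtl1, Rian and Mirg at day 4 in PGK, Mirg and Dio3 late in PGK, and Dlk1 late in E14.

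A call in PGK and none in E14 does not show that the lines differ, so the difference of the changes was tested. It passed for 0 of the 6 genes, where edgeR called 12 of 15732 genes (0.0763%) and DESeq2 also called 0 members. The difference was largest in size for Mirg, at 2.03 on the log2 scale (SE 0.70, unadjusted p = 0.00992, adjusted p = 0.45 by edgeR), the only member of 6 under 0.05 unadjusted; over all genes 1165 were. Rtl1 had a difference of 1.85 (SE 1.41, adjusted p = 0.834 by edgeR), Meg3 of 1.66 (SE 0.92, adjusted p = 0.753 by edgeR) and Rian of 1.17 (SE 0.79, adjusted p = 0.794 by edgeR). The other members had negative differences, Dio3 of −1.94 (SE 1.86, adjusted p = 0.872 by edgeR) and Dlk1 of −1.62 (SE 1.92, adjusted p = 0.905 by edgeR).

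Set against each other at day 4, PGK and E14 also gave 0 calls among the 6 genes (26 of 15732 called by edgeR, 0.165%, 1054 at an unadjusted p under 0.05 and 0 members by DESeq2). Mirg, Rtl1 and Dlk1 stood higher in both PGK libraries than in both E14 libraries at this stage. For Mirg, with 141 and 70.8 CPM in PGK against 53.2 and 24.3 CPM in E14, the log2 difference was 1.43 (SE 0.49, adjusted p = 0.462 by edgeR). At day 0 the order of Mirg was the other way round, with 8.12 and 8.65 CPM in PGK against 13.7 and 12.7 CPM in E14. That difference of −0.60 (SE 0.50, adjusted p = 0.658 by edgeR) did not pass, nor did that of any other member at day 0 (79 of 15732 called, 0.502%). At day 10, at days 19 to 23 and at days 27 to 30 the lines likewise gave 0 calls, with a background of 0.0636%, 0.0636% and 0.0572% of genes called by edgeR. At an unadjusted p under 0.05, 579, 715 and 385 genes passed at these 3 stages, and none was a member, while DESeq2 called 0 members at each of the 5 stages. At days 27 to 30 Meg3, Rian, Mirg and Rtl1 were higher, and Dio3 lower, in both PGK libraries than in both E14 libraries. For this order and for that at day 4, the share of all genes so placed was not counted, so both are descriptions. Mirg then measured 37.5 and 32.9 CPM in PGK against 21.1 and 17.4 CPM in E14 (log2 difference 0.90, SE 0.48, adjusted p = 1 by edgeR), and Dio3 1.17 and 0 CPM in PGK against 3.12 and 3.75 CPM in E14 (−2.49, SE 1.37, adjusted p = 1 by edgeR).

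At day 10 the noncoding RNAs of PGK stood lower than at day 4 in both experiments. Mirg measured 57.1 CPM (diff2) and 29.8 CPM (diff3) at day 10, against 141 and 70.8 CPM at day 4, with no overlap. The change of −1.32 (SE 0.38, adjusted p = 0.144 by edgeR) did not pass. Rtl1 measured 1.86 and 0.472 CPM at day 10, against 11.4 and 3.97 CPM at day 4 (log2 fold change −2.77, SE 0.99, adjusted p = 0.27 by edgeR). Meg3 with −0.95 (SE 0.67) and Rian with −0.95 (SE 0.53) had overlapping groups. In all, 0 of the 6 genes were called at this step, where edgeR called 231 of 15284 genes (1.51%) and 1880 passed at an unadjusted p under 0.05, Mirg and Rtl1 among them. DESeq2 called Mirg and Rtl1, and a term for the library code, carried by the 6 diff2 libraries of days 0, 4 and 10, called Meg3, Rian and Mirg.

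In E14 the step to day 10 also gave 0 calls (27 of 14501 genes called by edgeR, 0.186%, 1250 at an unadjusted p under 0.05, none a member, and 0 members by DESeq2). Meg3 measured 840 and 327 CPM at day 10, against 633 and 209 CPM at day 4. It stood higher at day 10 in both E14 experiments, and lower at day 10 in both PGK experiments. Mirg measured 35.2 and 65.0 CPM at day 10, against 53.2 and 24.3 CPM at day 4, so the 2 experiments moved in opposite directions. For the 2 later steps edgeR called 0 genes of any kind in either line (0% of those tested). DESeq2 called 4 to 274 genes there and 0 members, and 106 to 938 genes, 0 of them members, had an unadjusted p under 0.05.

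Over the whole course in PGK, days 27 to 30 against day 0, 2 of the 6 genes passed, 1 higher and 1 lower, where edgeR called 3833 of 15284 genes (25.1%), 13% as higher and 12% as lower. The diff2 library of day 0 carries the library code in its title and that of the late stage does not, while neither diff3 library does. Mirg measured 37.5 and 32.9 CPM late, against 8.12 and 8.65 CPM at day 0. Its late libraries lay close together and well above the first ones (log2 fold change 1.99, SE 0.39, adjusted p = 0.00489 by edgeR), and the call held in all 11 alternatives. Dio3 fell to 1.17 CPM in diff2 and 0 counts in diff3, against 9.58 and 69.0 CPM at day 0 (log2 fold change −6.12, SE 1.54, adjusted p = 0.0165 by edgeR). The late diff3 library had counts in 13349 genes at a depth of 21198258, against 16126 genes at 23870716 in the late diff2 library. Whether this bears on its 0 counts of Dio3 was not tested. The call of Dio3 was lost without the diff3 library of day 0 (adjusted p = 0.105), without the diff3 library of days 27 to 30 (adjusted p = 0.0628) and without the filter (adjusted p = 0.0982).

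Rian measured 358 and 247 CPM late in PGK, against 145 and 58.2 CPM at day 0, and just missed the threshold (log2 fold change 1.50, SE 0.54, adjusted p = 0.067 by edgeR). With the experiment as a replicate block it passed (adjusted p = 0.00556 by edgeR), as it did with a library code term, DESeq2, limma and without the diff2 day 0 library. Meg3 measured 430 and 256 CPM late, against 259 and 85.0 CPM at day 0, with a log2 fold change of 0.92 that did not pass (SE 0.67, adjusted p = 0.339 by edgeR) but was 1.94 and passed with the library code term (adjusted p = 0.000805 by edgeR). Rtl1 with 1.97 (SE 0.99, adjusted p = 0.171 by edgeR) and Dlk1 with 2.92 (SE 1.12, adjusted p = 0.0826 by edgeR) had no overlap between the groups and did not pass either. Dlk1 passed with DESeq2 (adjusted p = 0.0184), with limma (adjusted p = 0.0377) and, at 6.01, without the diff2 day 0 library (adjusted p = 0.0139 by edgeR).

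In E14 over the whole course 1 of the 6 genes passed, where edgeR called 1990 of 14501 genes (13.7%), 8.73% as higher. Dlk1 rose to 2.88 CPM in diff2 and 7.21 CPM in diff3, against 0.0746 and 0 CPM at day 0. Summed over libraries this was 237 counts against 1, a ratio of 87.7 relative to library totals (95% exact interval 15.6 to 3477). The fitted log2 fold change of 6.28 (SE 1.62, adjusted p = 0.0283 by edgeR) rests on a single count at day 0. Its call was lost without either late library (adjusted p 0.0783 and 0.151), with a term for the library code (adjusted p = 0.051) and with both shallow libraries left out (adjusted p = 0.0545). Dlk1 had a higher mean at each later stage of E14, 1.53, 2.53, 3.42 and 5.04 CPM at day 4, day 10, days 19 to 23 and days 27 to 30, but the ranges of neighbouring stages overlapped from day 4 on.

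None of the 3 noncoding RNAs passed over the whole course in E14. Meg3 measured 206 and 239 CPM late, against 259 and 236 CPM at day 0 (log2 fold change −0.16, SE 0.52, adjusted p = 0.868 by edgeR), and the sign turned to 0.31 with a term for the library code. Rian had a log2 fold change of 0.63 (SE 0.51) and Mirg of 0.53 (SE 0.58), with both late libraries above both of day 0, and Rian passed with the library code term (1.29, adjusted p = 0.021 by edgeR). Dio3 measured 3.12 and 3.75 CPM late, against 4.70 and 37.9 CPM at day 0 (log2 fold change −2.58, SE 1.18, adjusted p = 0.173 by edgeR). It passed with DESeq2 (adjusted p = 0.0459) and, at −3.41, without the diff2 day 0 library. The latter setting leaves the shallow library alone at day 0. Its median log2 fold change over all genes was 0.87, against 0.19 in the main fit. The difference between the lines in the late change passed for 0 of the 6 genes (8 of 15732 called by edgeR, 0.0509%, 1006 at an unadjusted p under 0.05 and 0 members by DESeq2). Mirg had the only unadjusted p under 0.05 among the members, with a difference of 1.50 (SE 0.69, unadjusted p = 0.0451, adjusted p = 0.776 by edgeR). Dio3 had −3.49 (SE 1.86, adjusted p = 0.812 by edgeR) and Dlk1 −3.33 (SE 1.94, adjusted p = 0.835 by edgeR).

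Ordered by mean level, Meg3 in PGK ran day 4, day 10, days 27 to 30, days 19 to 23 and day 0, and each stage overlapped the next. Meg3 in E14 had its highest mean at day 10, with 583 ± 363 CPM, and its lowest at days 27 to 30, with 222 ± 23.5 CPM, again with overlap between neighbours. Mirg in PGK was apart from the next stage at day 4 (106 ± 49.7 CPM) and at day 0 (8.38 ± 0.376 CPM). Rtl1 at day 4 stood clear of every other stage in both lines, at 7.67 ± 5.22 CPM in PGK and 3.61 ± 0.205 CPM in E14. Mirg and Dlk1 at day 0 stood clear below every later stage in both lines, Rian did so in PGK and Rtl1 in E14. For Dlk1 this rests on 12 counts at day 0 in PGK and 1 in E14. Dio3 at day 0 stood clear above every later stage in PGK. The share of all genes with such an order was not counted.

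Counts per 100 Meg3 counts were then followed for each gene across libraries, to set aside the level of Meg3 itself. Rian had 75.6 to 108 counts per 100 Meg3 counts in the 8 PGK libraries from day 4 on, against 56.0 and 68.5 at day 0. In E14 it had 86.6 and 133 at day 4, against 62.2 and 36.2 at day 0, and 49.7 and 45.0 at day 10. At days 19 to 23 it had 81.2 and 75.4 and at days 27 to 30 98.2 and 77.1, again above both day 0 libraries. Mirg had 6.89 to 15.0 in PGK from day 4 on, against 3.14 and 10.2 at day 0, so that only diff2 set its first stage clearly apart. In E14 Mirg had 8.39 and 11.6 at day 4, against 5.30 and 5.39 at day 0, and it ranged from 4.19 in diff2 to 19.9 in diff3 at day 10. Rtl1 had 0.83 and 0.694 at day 4 in PGK, against 0.0941 and 0.66 at day 0, and 0.224 and 0.237 at day 10. From days 19 to 23 on it had 0.321 to 0.849 in PGK. These ratios have no test, and those of the shallow E14 day 4 library rest on 422 Meg3 counts and 7 Rtl1 counts.

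**Figure D3:**
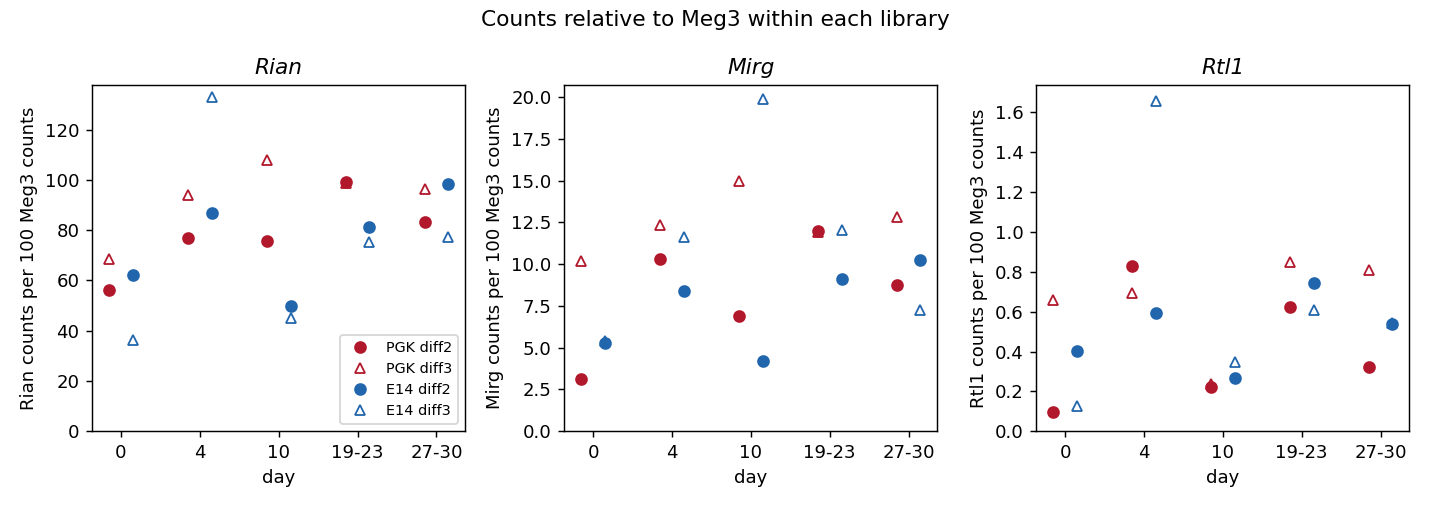
Counts of Rian, Mirg and Rtl1 per 100 Meg3 counts in each library by day, with PGK in red left of E14 in blue, filled circles for diff2 and open triangles for diff3. Rian in PGK lay between 75.6 and 108 from day 4 on, above both day 0 libraries. Rian in E14 was at 49.7 and 45.0 at day 10 and at 75.4 to 98.2 from days 19 to 23 on.

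Across the 20 libraries the noncoding RNAs went together. On log2(CPM + 1), Pearson's r was 0.886 for Meg3 and Rian, 0.837 for Rian and Mirg and 0.79 for Meg3 and Mirg. Rian and Rtl1 had 0.827, and Dlk1 and Dio3 had −0.67. Within PGK the value for Meg3 and Rian was 0.968, and within E14 it was 0.709. These values are a description: libraries of one stage, line and experiment are not independent, and the step away from day 0 is shared by most of them.

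The genes whose log2 CPM tracked a member most closely over the 20 libraries were Rfx1 for Meg3 (Pearson r = 0.877), Prph for Rian (0.862), Bspry for Mirg (0.887), Grip2 for Rtl1 (0.847), Spry4 for Dlk1 (0.915) and Mfsd7c for Dio3 (0.881), of 15726 genes searched. Wnt8a, which codes for a Wnt ligand of the primitive streak, was the third closest to Mirg (0.847), and Jag2, a Notch ligand, the third closest to Meg3 (0.832).

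Dio3os, transcribed from the strand opposite to Dio3 just upstream of it (110275385 to 110278172), had 68 counts at day 0 in PGK, 62 of them in diff3. That library also held the highest Dio3, 1476 counts, and it had 4.20 Dio3os counts per 100 Dio3 counts, against 5.09 in diff2. Dio3os had 3 counts in PGK at days 27 to 30, a ratio of 0.033 to day 0 relative to library totals (95% exact interval 0.00664 to 0.101, counting error only), but the late change did not pass the test across libraries (log2 fold change −4.68, SE 1.93, adjusted p = 0.109 by edgeR). In E14 it had 22 counts at day 0, all in diff2, and 0 in the shallow diff3 library. Dio3os did not pass at day 4 in PGK either (log2 fold change −2.81, SE 1.74, adjusted p = 0.323 by edgeR).

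Genes on either side of the cluster were read out to see whether the rise extended beyond it. Of 18 neighbours listed in the tables, 1 rose and 1 fell at day 4 in PGK (14.8% of all genes called), and their median log2 fold change was 0.12 (−0.01 over all genes). Eml1, a microtubule-associated protein gene on the Dlk1 side, rose (log2 fold change 2.50, SE 0.50, adjusted p = 0.00754 by edgeR). Hsp90aa1, a heat shock protein gene beyond Dio3, fell by 1.16 (SE 0.30, adjusted p = 0.0273 by edgeR). In E14, where 9.56% of all genes were called, Eml1 was the only one of the 18 to pass (3.32, SE 0.89, adjusted p = 0.0415 by edgeR). The median of the neighbours there was 0.16, against 0.15 over all genes. Begain, the nearest listed neighbour on the Dlk1 side, had 1.48 (SE 1.56) in PGK, and Ppp2r5c, the nearest beyond Dio3, had −0.82 (SE 0.27, adjusted p = 0.0676 by edgeR).

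**Figure D4:**
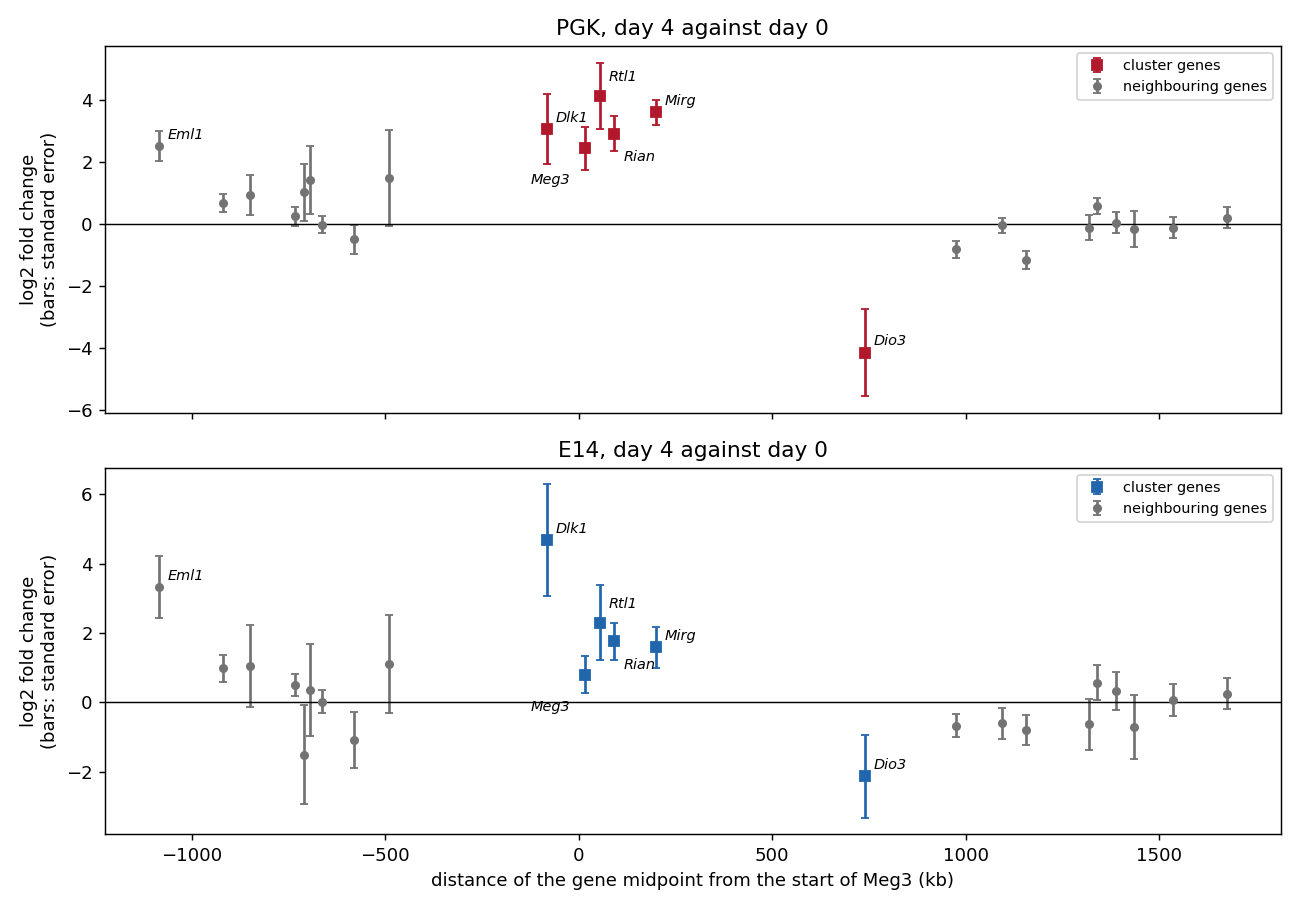
Fitted log2 fold change with standard error, day 4 against day 0, by distance of each gene's midpoint from the start of Meg3 in kb, for the 6 cluster genes (coloured squares) and 18 neighbours (grey circles), PGK above E14. Most neighbours lay near 0 in PGK, with Eml1 at 2.50, while 5 of the cluster genes lay above 2 and Dio3 at −4.14.

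Genes known to set or keep imprints moved in the same 4 days. Of 20 in the list, 3 rose and 6 fell in PGK, where 14.8% of all genes were called. Dnmt3b, a de novo DNA methyltransferase, rose with a log2 fold change of 4.65 (SE 0.31, adjusted p = 2.84e-05 by edgeR), and Aff3, which binds the IG-DMR in mouse embryonic stem cells, rose with 5.04 (SE 0.50, adjusted p = 0.000181 by edgeR). Tet2, which oxidises methylated cytosine, fell by 4.83 (SE 0.54, adjusted p = 0.000329 by edgeR). In E14, with 9.56% of all genes called, 4 of 19 rose and 3 fell, among them Dnmt3b with 5.98 (SE 0.54) and Zfp57, the zinc finger protein that protects imprints, with −3.33 (SE 0.39, adjusted p = 0.000826 by edgeR).

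Among imprinted genes elsewhere, 7 of 31 rose and 3 fell at day 4 in PGK (14.8% of all genes called), with a median of 0.73. Plagl1, a zinc finger gene, fell by 3.47 (SE 0.26), and Magel2 with 5.91 (SE 0.65) and Peg3 with 3.11 (SE 0.35) rose, all with an adjusted p under 0.001 by edgeR. By days 27 to 30, 15 of 31 had risen and 3 had fallen in PGK (median 1.89, 25.1% of all genes called), and 13 of 32 had risen and 2 had fallen in E14 (median 1.89, 13.7% of all genes called).

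The Notch pathway, to whose ligands Dlk1 is related, and the relatives of Rtl1 were followed by list. Of 13 Notch genes 4 rose and 0 fell at day 4 in PGK (8.35% of all genes called as higher), with Jag2 at 3.83 (SE 0.66, adjusted p = 0.00369 by edgeR) and Dll3, a ligand relative, at 3.14 (SE 0.65, adjusted p = 0.00922 by edgeR). In E14, where 9.56% of all genes were called, 0 of 14 rose and 1 fell, Notch4. The median log2 fold change of the list was 1.48 in E14 (0.15 over all genes) and 0.84 in PGK (−0.01 over all genes). The difference between the lines in this change passed for 0 of 15 Notch genes (0.0763% of all genes called). Of the retrotransposon-derived relatives of Rtl1, 0 of 4 passed at day 4 in PGK and 0 of 3 in E14. By the late stage 0 of 4 passed in PGK (25.1% of all genes called) and 1 of 3 in E14 (13.7% of all genes called). The gene that passed, Peg10, had risen (3.06, SE 0.67, adjusted p = 0.0147 by edgeR) and is also counted among the imprinted genes elsewhere.

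Markers of other cell types moved over the same stages. The 13 fibroblast and feeder genes summed to 74.5 to 114 CPM at day 4 and 363 to 367 CPM at days 27 to 30 in PGK, against 50.8 to 82.2 CPM at day 0, where Col3a1 and Twist2 had no count. In E14 they summed to 69.9 to 85.6 CPM at day 4 and 234 to 442 CPM at days 27 to 30, against 9.77 to 30.7 CPM at day 0, where Col1a2, Lum and Twist2 had none. At day 4 Lum had no count in PGK, and Postn and Lum had none in E14. The 10 genes of mesoderm and primitive streak summed to 91.5 to 763 CPM at day 4 in PGK, against 10.3 to 23.3 CPM at day 0, and to 10.9 to 19.7 CPM at day 4 in E14, against 13.8 to 28.1 CPM at day 0. The 8 neuroectoderm genes summed to 234 to 653 CPM at day 4 in PGK, against 55.6 to 59.0 CPM at day 0, and to 372 to 527 CPM in E14, against 46.2 to 93.3 CPM. The 12 genes of extraembryonic endoderm summed to 79.8 to 151 CPM at day 4 in PGK, against 221 to 236 CPM at day 0, and to 571 to 641 CPM at days 27 to 30. In E14 they summed to 63.9 to 94.8 CPM at day 4, against 386 to 484 CPM at day 0, and to 467 to 477 CPM at days 27 to 30. Whether cells of these types were present, and their part in the changes of the cluster genes, was not tested.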

How the data were processed

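The authors deposited 3 tables per line: unnormalized counts, a normalized signal, and variance-stabilized log2 values. Checked against the counts, the deposited signal equals counts over a constant of each library within a relative difference of 9.4e-10. Per the submitters' processing notes, CASAVA 1.8.2, Cuffdiff and DESeq2 were used with GRCm38 (mm10); the sources used here do not name the aligner, the annotation or the use of strand. The 6 genes and all lists were chosen with earlier results of these data known, and the genes named beyond the 6 followed a rule on adjusted p or correlation, or neighbour the cluster.

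Counts were tested with edgeR 4.0.16 in R 4.3.3 (TMM, filterByExpr with a minimum count of 10, robust quasi-likelihood, Benjamini-Hochberg over all genes tested), per line on 10 libraries (5 residual degrees of freedom) or on all 20 for the lines together (10). In all 17 comparisons were made, and the scripts were tested on simulated data. Alternatives were other size factors, no filter, an experiment block, a library code term, DESeq2 1.42.0, limma 3.58.1 on the deposited log2 values, and leaving out libraries. Same-numbered libraries share a differentiation experiment per the labels, which pairs them, but the main fits had no term for this pairing. The correlation of their deviations ran from −0.21 to 0.547 (median 0.04) over 20 pairs within a line. Among days 0, 4 and 10 it was 0.42 to 0.547 in PGK and 0.138 to 0.24 in E14. Between the lines it ran from −0.144 to 0.526 (median 0.082) over 25 pairs, and from 0.195 to 0.526 among days 0, 4 and 10. On these days the diff2 libraries carry the library code and the diff3 libraries do not. The experiment and the code can therefore not be told apart there. Sequences are from RefSeq (GRCm38.p6). Intervals and floors cover counting error only. The result of 1 further gene list is not reported here.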

Additional observations from a re-analysis of the deposited data

Results flagged for a closer look

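Meg3 moved in opposite directions between day 4 and day 10 in the 2 lines, in both experiments. On log2(CPM + 1), day 10 minus day 4 was −0.72 in diff2 and −1.52 in diff3 of PGK, against 0.41 in diff2 and 0.64 in diff3 of E14. Dio3 did so in the step after. Days 19 to 23 minus day 10 was −1.52 in diff2 and −0.46 in diff3 of PGK, against 0.98 in diff2 and 0.72 in diff3 of E14. The difference between the lines in these 2 steps was not tested, and 1 of the E14 values for Meg3 uses the shallow day 4 library.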

How the results depend on the processing

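Numbers of the 6 genes called moved as follows. PGK day 4 against day 0: 4, but 2 without the low-count filter, 5 with DESeq2, 6 with limma (Dio3 lower) and 2 to 3 leaving out single libraries. PGK day 10 against day 4: 0, but 1 without the filter, 3 with a library code term and 2 with DESeq2. PGK days 27 to 30 against day 0: 2, but 1 without the filter, 3 with the replicate block, 4 with the code term, 4 with DESeq2, 4 with limma and 1 to 4 leaving out single libraries. E14 day 4 against day 0: 0, but 1 without the filter, with the replicate block, with the code term and with limma, 3 with DESeq2, 2 in a joint fit of both lines and 0 to 2 leaving out single libraries. E14 days 27 to 30 against day 0: 1, but 2 with DESeq2, 0 with both shallow libraries left out (chosen after seeing the data) and 0 to 2 leaving out single libraries. The other 12 comparisons gave 0 throughout. The replicate block changed the call of Rian in E14 at day 4 and late in PGK, and of no other member. The causes were not tested.

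Leaving out single libraries, signs turned in 5 results: Dio3, PGK day 10 against day 4 (0.77, range −0.739 to 1.511); Meg3, E14 day 4 against day 0 (0.80, range −0.219 to 1.388); and, as differences between lines, Dlk1 at day 4 (−1.62, range −4.841 to 1.449), Dio3 at day 4 (−1.94, range −4.02 to 0.048) and Rtl1 late (1.33, range −0.051 to 2.055). Meg3 in the late E14 change turned to 0.311 with the code term. None of these passed the test in any setting.

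Counts over all genes moved as well. The 2260 genes of PGK day 4 ranged from 1366 to 3698, the 231 of PGK day 10 against day 4 from 52 to 855, the 3833 of the late PGK change from 2208 to 5114, the 1386 of E14 day 4 from 474 to 4517 and the 1990 of the late E14 change from 643 to 4941. Between lines, the 79 genes of day 0 ranged from 24 to 3317, the 26 of day 4 from 6 to 235, the 10 of day 10 from 9 to 78, the 10 of days 19 to 23 from 5 to 89 and the 9 of days 27 to 30 from 5 to 24. The 12 and 8 genes of the differences in change ranged from 1 to 2345 and from 1 to 2286, and the 27 of E14 day 10 against day 4 from 0 to 520. For the later steps, 0 became at most 274, with DESeq2. The median log2 fold change over all genes in the late E14 change was 0.19, 0.07 with DESeq2 and 0.34 with limma. Low counts limit Dlk1, Rtl1 and Dio3.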
